A study of Homo sapiens with 2 samples.

Results

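Fc receptors bind the constant part of antibodies, and 5 genes of this group, FCGR2A, FCGR2B, FCGR2C, FCER1G and FCGRT, were examined in K562 cells resistant to nilotinib (nilotinibR) and in parental K562 cells. They are 5 of the 20046 genes that the platform annotation names on the array. The genes were chosen by their differences between these arrays (the intensities below), so the differences are given as a description and none was tested. K562 is an established chronic myeloid leukemia line driven by BCR/ABL, and nilotinib is a tyrosine kinase inhibitor of BCR/ABL. NilotinibR cells had been passaged over 3 months in 0.1, 0.3 and then 1 µM nilotinib, and were grown in 1 µM nilotinib. Parental cells were cultured in parallel without drug. Total RNA of each was measured on 1 HumanHT-12v4 Expression BeadChip. As each condition had a single array, differences lack replicates, and resistance, the presence of the drug and chance differences between the cultures cannot be told apart.

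FCGR2A (CD32A) and FCGR2B (CD32B) are low-affinity receptors for IgG on blood cells. FCGR2A carries an activating ITAM motif in its own tail and is known from neutrophils, monocytes and platelets, whereas FCGR2B carries an inhibitory ITIM motif and is known from B cells and myeloid cells. FCGR2C joins parts of both genes, and RefSeq lists it as a transcribed pseudogene in the reference genome. FCER1G encodes the Fc receptor gamma chain, an ITAM-bearing partner that other Fc receptors need at the cell surface. FCGRT encodes the neonatal Fc receptor FcRn, a relative of MHC class I that pairs with B2M and returns IgG and albumin from endosomes to the cell surface. K562 is a cell line long used in studies of CD32.

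The members were found through the gene symbols of the platform annotation. FCGR2A and FCGR2B had 3 probes each, FCER1G and FCGRT had 1 each, and no probe was annotated to FCGR2C, so the array gave no value under that name. None of the 8 member probes was annotated to more than 1 gene. The probe sequences were not used here, so whether an FCGR2A or FCGR2B probe also binds RNA of the paralogs was not tested. In GRCh38.p14, FCGR2A lies at chr1:161505457-161524048, FCGR2C at chr1:161581339-161601220 and FCGR2B at chr1:161647243-161678654. FCER1G lies on the same chromosome at chr1:161215295-161219245, and FCGRT at chr19:49512661-49526428.

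The 250 bases before the start of FCGR2A are shown with those before both FCGR2B starts in the RefSeq promoter table (GRCh38.p14, plus strand), to set the member with the largest decrease beside its paralog. Capitals mark the letters of GATAA, the GATA core, GAGGAA, a core bound by PU.1, and TTCNNNGAA, the STAT5 core, all searched on both strands. No marked matches overlap.
FCGR2A, chr1:161505207-161505456: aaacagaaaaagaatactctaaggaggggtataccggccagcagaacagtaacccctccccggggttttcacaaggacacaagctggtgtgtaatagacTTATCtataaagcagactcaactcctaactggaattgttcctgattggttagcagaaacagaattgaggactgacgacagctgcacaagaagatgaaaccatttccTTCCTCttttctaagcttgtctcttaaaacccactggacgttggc
FCGR2B, first start, chr1:161646993-161647242: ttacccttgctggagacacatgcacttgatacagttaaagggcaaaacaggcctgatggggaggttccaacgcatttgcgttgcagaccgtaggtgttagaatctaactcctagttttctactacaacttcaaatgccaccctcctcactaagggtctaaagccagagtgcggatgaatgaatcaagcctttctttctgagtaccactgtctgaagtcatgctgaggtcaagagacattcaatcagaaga
FCGR2B, second start, chr1:161662893-161663142: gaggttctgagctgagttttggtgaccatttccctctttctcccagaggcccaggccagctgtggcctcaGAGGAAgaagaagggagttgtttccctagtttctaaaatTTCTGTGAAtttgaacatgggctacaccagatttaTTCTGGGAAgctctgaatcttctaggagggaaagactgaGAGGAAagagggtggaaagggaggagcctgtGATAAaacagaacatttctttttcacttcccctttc
The FCGR2A window held 1 GATA core, which begins 151 bases before the start, and 1 PU.1 core, which begins 45 bases before it. The window of the second FCGR2B start held 1 GATA core at 36 bases, 2 PU.1 cores at 180 and 67 bases and 2 STAT5 cores at 141 and 106 bases. The window of the first FCGR2B start, and those of FCER1G and FCGRT, which are not shown, held none of these letters. Of all 35116 promoter windows of this length, 20.4% held the GATA core, 23.6% the PU.1 core and 6.57% the STAT5 core. These matches describe letters only, and binding was not measured.

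FCGR2A was the member with the largest difference, and its RNA signal was near the level of the dim probes in nilotinibR cells. Values are the deposited intensities, which are linear and still contain background. A probe was taken as measured on an array when it was above that array's dim-probe level, which 5% of normally distributed background would exceed, at an intensity of 119 on the nilotinibR and 120 on the parental array. FCGR2A probe ILMN_1666932 had an intensity of 154 in nilotinibR cells, against 1188 in parental cells. Probe ILMN_2289849 had an intensity of 120 in nilotinibR cells, against 636 in parental cells. Probe ILMN_1706523 had an intensity of 130 in nilotinibR cells, against 600 in parental cells. All 3 probes thus lay at 1.01 to 1.29 times the dim-probe level in nilotinibR cells, and at 4.99 to 9.88 times it in parental cells.

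**Figure D1:**
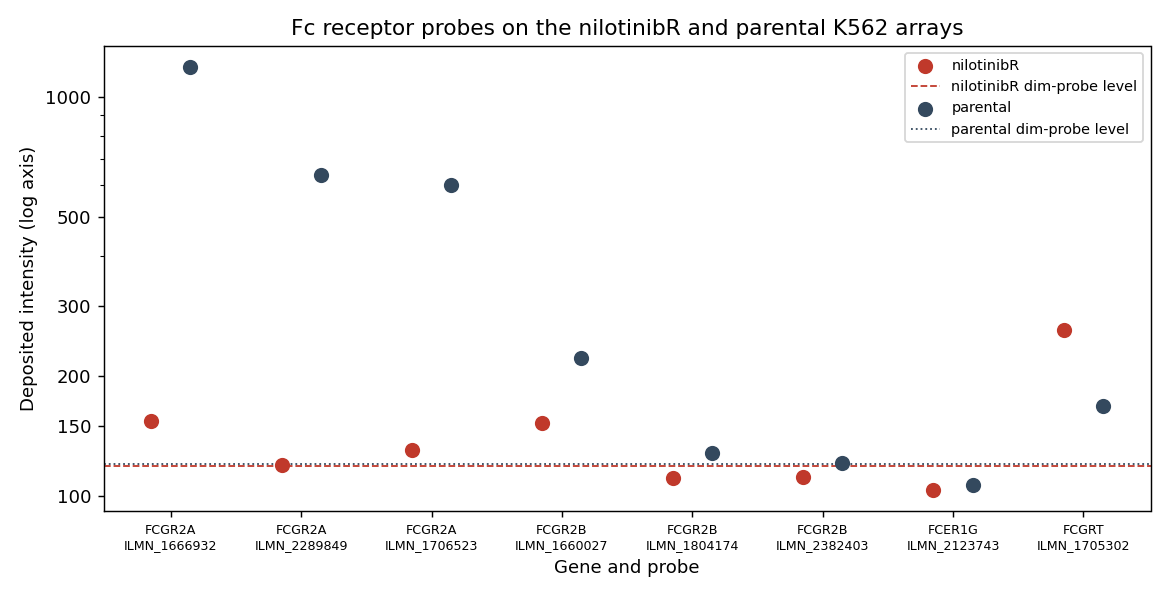
Deposited intensity (log axis) of the 8 Fc receptor probes on the nilotinibR array (red) and the parental array (dark), with each array's dim-probe level as a dashed or dotted line. The 3 FCGR2A probes lie at 120 to 154 in nilotinibR cells and at 600 to 1188 in parental cells, while the FCGRT probe is higher in nilotinibR cells.

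After background correction with normexp and an offset of 50, quantile normalization and log2, the FCGR2A probes had log2 differences (nilotinibR minus parental) of -3.38, -2.97 and -2.70. Their mean level was 6.45 in nilotinibR cells and 9.47 in parental cells on the log2 scale, or 8.10-fold lower in nilotinibR cells. The 3 probes are a repeated measurement of the same RNA on the same arrays and do not stand for replicate cultures. The fold depended on how background was handled. Without any correction, the deposited intensities were 7.73-fold, 5.31-fold and 4.61-fold lower, and with an offset of 16 the gene was 12.8-fold lower. Of the 13164 genes kept, 8.22% were at least 1.5-fold lower and 7.51% at least 1.5-fold higher in nilotinibR cells, and of the 17585 named probes kept, 8.68% were lower and 7.93% higher at that fold. FCGR2A ranked as number 7 from the lowest difference among these genes, which describes the choice of the gene and supports nothing further.

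FCGR2B was lower by a smaller difference, which only 1 of its probes showed at 1.5-fold. Probe ILMN_1660027 had an intensity of 153 in nilotinibR cells, against 222 in parental cells, and was 1.66-fold lower. Probe ILMN_1804174 had an intensity of 111 in nilotinibR cells, against 128 in parental cells, and probe ILMN_2382403 had 112 in nilotinibR cells, against 121 in parental cells. Both were not above the dim-probe level in nilotinibR cells. The bounds were at least 1.11-fold and at least 1.01-fold lower, where the bound uses the lowest normalized level among measured probes on the nilotinibR array. In parental cells these probes were at only 1.06 and 1.01 times the dim-probe level, so neither bound is clear of background. As the mean of the 3 probes, FCGR2B had a log2 level of 6.27 in nilotinibR cells and 6.67 in parental cells, or 1.32-fold lower, under 1.5-fold. Taken from probes above the dim probes on both arrays, it was 1.66-fold lower. Annotation assigned the brighter probe to transcript NM_004001, as it did ILMN_2382403, which gave the smallest difference.

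The Fc receptor gamma chain gene FCER1G was not above the dim-probe level on either array. Its probe had an intensity of 103 in nilotinibR cells and 107 in parental cells, so no fold is given. FCGRT was the member with the opposite direction. Its probe ILMN_1705302 had an intensity of 261 in nilotinibR cells, against 168 in parental cells, and was above the dim-probe level on both arrays. The normalized log2 level was 7.75 in nilotinibR cells and 6.94 in parental cells, or 1.75-fold higher. With 1 probe this value has no second measurement. It lay between 1.54-fold and 2.04-fold over the 8 alternatives, of which those that only select probes could not alter it. Of the 5 members, 3 were kept for the comparison, which were 1 lower at 1.5-fold, 1 higher and 1 that passed neither.

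**Figure D2:**
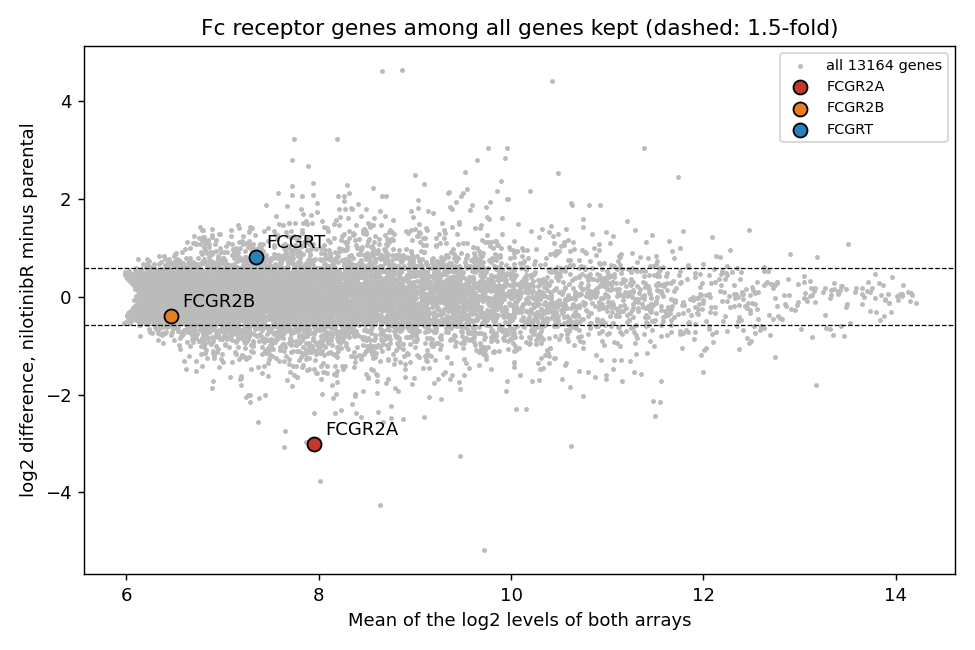
Difference between the arrays (log2, nilotinibR minus parental) against the mean log2 level for the 13164 genes kept, with 1.5-fold marked by dashed lines. FCGR2A lies at -3.02, FCGR2B at -0.40 between the lines and FCGRT at 0.81.

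The relatives of these receptors were mostly dim. Of 21 other Fc receptor and Fc receptor-like genes, 19 had a probe and 10 were kept, of which 3 were above the dim-probe level on both arrays. TRIM21, the cytosolic antibody receptor, was 1.54-fold higher in nilotinibR cells, at a log2 level of 7.66, against 7.05 in parental cells. FCRLB, an intracellular relative of the Fc gamma receptors, was 1.55-fold lower, at 7.18 in nilotinibR cells and 7.82 in parental cells. The other 8 passed 1.5-fold in neither direction. Of the kept genes, 10% were thus lower and 10% higher, beside 8.22% and 7.51% of all genes. The TRIM21 and FCRLB calls were not made without background correction. FCGR3B (CD16B) had a log2 difference of 0.28, and FCGR3A (CD16A), above the dim-probe level in nilotinibR cells only, was at least 1.11-fold higher. These paralogs are nearly identical, so their signals may be shared. The high-affinity receptor FCGR1A, the IgE receptor chain FCER1A and the polymeric immunoglobulin receptor PIGR were not above the dim-probe level on either array.

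Below the activating receptors, SRC family kinases phosphorylate the ITAM, SYK docks there, and phospholipase C gamma, PI3 kinase and protein kinase C follow. Of 27 such genes kept, 2 were at least 1.5-fold lower and none higher, a share of 7.41% beside 8.22% of all genes. LYN, the SRC family kinase that phosphorylates these tails in myeloid cells, was 3.05-fold lower, at a log2 level of 9.29 in nilotinibR cells and 10.90 in parental cells. PRKCB, a protein kinase C, was 3.37-fold lower as the mean of 5 probes, at 8.32 in nilotinibR cells and 10.08 in parental cells. The ITAM-binding kinase SYK did not pass, at a log2 difference of -0.30, nor did BTK at -0.46, PLCG2 at -0.50 and FYN at 0.53. The FYN value is the mean of 4 probes that differed, from -0.09 to 0.86, the highest past 1.5-fold. The median difference of these genes was -0.25, against -0.0020 for all genes. With an offset of 16, 6 of them were lower and 1 was higher. From the brightest probe of each gene, 4 were lower and 1 was higher. With scaling to the 75th percentile, 4 were lower and none higher.

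None of the 7 kept genes that act below the ITIM of FCGR2B passed 1.5-fold, beside 8.22% lower and 7.51% higher of all genes. INPP5D, the inositol phosphatase SHIP1 that FCGR2B recruits, had a log2 difference of 0.29, and the phosphatase genes PTPN6 (SHP-1) and PTPN11 (SHP-2) had 0.08 and -0.10. The median of the 7 genes was 0.08, and 5 of them were above the dim-probe level on both arrays. PTPN6 had a log2 level of 6.29 in nilotinibR cells and 6.21 in parental cells. Measured probes began at 6.19 on both arrays, so such dim genes had little room to show a decrease. Among genes that shape actin during phagocytosis, 6 of 14 were at least 1.5-fold lower and none higher, a share of 42.9% beside 8.22% of all genes, with a median of -0.40. The list was chosen with earlier results of these data known, so the share is a description. The Arp2/3 subunit gene ARPC1B was 1.94-fold lower, VASP, an actin filament elongation factor, 1.90-fold, WAS, which activates Arp2/3 in blood cells, 1.83-fold, and the cofilin gene CFL1 1.62-fold. The remaining calls, ARPC4 and ARPC3, were 1.55-fold and 1.54-fold lower, just past the threshold, and 4 to 7 genes passed over the alternatives. These actin genes serve all cell movement and are not particular to Fc receptors.

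**Figure D3:**
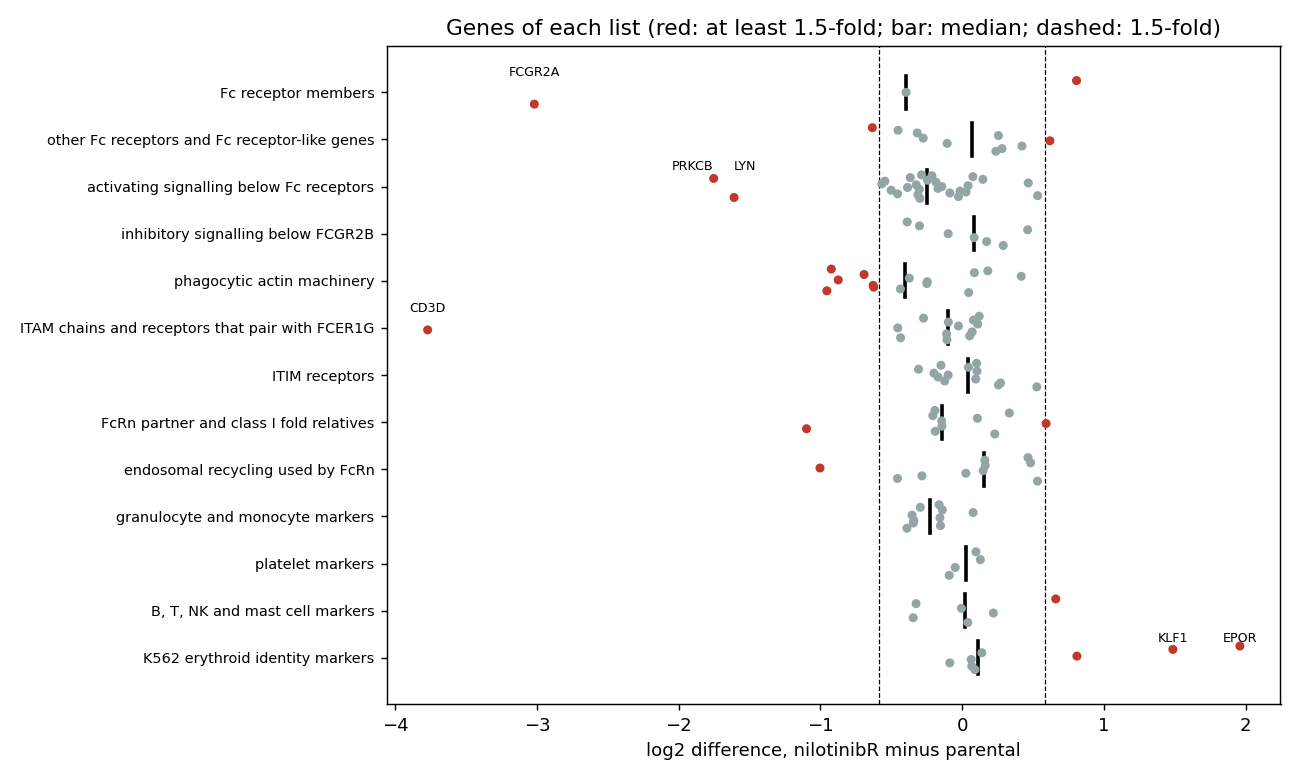
log2 difference (nilotinibR minus parental) of every kept gene in each list, one row per list, with the median as a bar and 1.5-fold as dashed lines; red points passed it. FCGR2A, CD3D, LYN and PRKCB lie far to the left, whereas inhibitory signaling genes, ITIM receptors and platelet markers stay between the lines.

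Of 13 kept genes that encode ITAM chains or receptors pairing with FCER1G, CD3D, a T cell receptor subunit, was the only one past 1.5-fold. The share lower was thus 7.69%, beside 8.22% of all genes. CD3D had a log2 level of 6.13 in nilotinibR cells and 9.90 in parental cells. Of its 2 kept probes, 1 was not above the dim-probe level in nilotinibR cells. TYROBP (DAP12), the myeloid ITAM adapter, had a log2 difference of -0.11, and the platelet collagen receptor GP6 had -0.03. For the partners of FcRn, B2M had a log2 difference of 0.23 as the mean of 2 probes. Of 10 kept genes with B2M and class I fold relatives, 10% were lower and 10% higher at 1.5-fold, beside 8.22% and 7.51% of all genes. HLA-E was 2.14-fold lower and MR1, which presents vitamin metabolites, 1.51-fold higher. The MR1 call was lost in 4 of the 8 alternatives (no background correction, the deposited values, and scaling to the median or the 75th percentile). Of 10 kept genes of the endosomal recycling route, RAB11FIP1, a RAB11 effector, was the only one lower at 1.5-fold, and none was higher. The share lower was 10%, beside 8.22% of all genes. RAB11FIP1 had a log2 level of 8.08 in nilotinibR cells and 9.08 in parental cells.

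Fewer cells of a type and less RNA per cell cannot be told apart in bulk RNA. The erythroid markers of K562 were bright on both arrays, with all 8 probes above the dim-probe level, between 638 and 19289 in nilotinibR cells and between 203 and 18230 in parental cells. Of these 8 genes, 3 were higher in nilotinibR cells by 1.5-fold or more and none lower, which is 37.5% beside 7.51% of all genes. The list was chosen with earlier results of these data known, so the share is a description. The count was the same in each of the 8 alternatives, which reprocess the same 2 arrays. The erythropoietin receptor gene EPOR was 3.89-fold higher, the erythroid transcription factor gene KLF1 2.80-fold and the transferrin receptor gene TFRC 1.75-fold, while GATA1 had a log2 difference of 0.14. The globin genes HBG1, HBG2, HBE1 and HBZ had log2 differences of 0.09, 0.07, -0.09 and 0.06. Their probes lay near the highest intensities of both arrays, where quantile normalization leaves little room for a difference. Whether probes this bright could still show an increase was not tested, so these values do not show that globin RNA was unchanged. Of 28 probes for granulocyte and monocyte markers, 11 were above the dim-probe level in nilotinibR cells and 14 in parental cells, and their summed intensity was 3833 in nilotinibR cells and 4361 in parental cells. None of the 10 kept genes of this list passed 1.5-fold (median -0.23), beside 8.22% lower and 7.51% higher of all genes. Of these 10 genes, 5 were above the dim-probe level on both arrays. Apart from CD68, their log2 levels were at most 6.98 on either array. Measured probes began at 6.19, so they had little room to show a decrease. The log2 differences of single probes ran from -0.92 to -0.06 for CD68 and from -0.79 to 0.20 for LYZ. MPO, ELANE, S100A8 and S100A9 were not above the dim-probe level on either array. With an offset of 16, 2 genes of this list were lower at that fold, and 1 was from the brightest probe or from probes above the dim-probe level on both arrays. SPI1, which encodes PU.1, had a log2 difference of -0.39. Of 8 platelet marker probes, 3 were above that level in nilotinibR cells and 4 in parental cells, with a summed intensity of 1001 in nilotinibR cells and 990.4 in parental cells, and none of the 4 kept genes passed. Of 21 probes for B, T, NK and mast cell markers, 5 were above it on each array, with sums of 2346 in nilotinibR cells and 2373 in parental cells. Of the 6 kept genes of this list, 1 was counted as higher at 1.5-fold and none as lower. The share higher was 16.7%, beside 7.51% of all genes, and the count was 0 or 1 over the alternatives. The gene counted was HDC, a mast cell and basophil enzyme, at 1.58-fold from its normalized levels. It was above the dim-probe level in nilotinibR cells only, so its bound is at least 1.28-fold higher, under 1.5-fold. The part of other cell types, or of the erythroid genes, in the FCGR2A difference was not tested.

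No kept neighbor of the members was lower by as much as FCGR2A, a gene chosen for its difference, so this describes the choice only. Among the 10 genes on either side of FCGR2A, FCGR2B and FCGR2C in the RefSeq order, 9 other genes were kept, and 4 of them were at least 1.5-fold lower and none higher, beside 8.22% lower and 7.51% higher among all genes. The heat shock genes HSPA6 and HSPA7, which are close copies and may share signal, were 2.42-fold and 1.83-fold lower, and the HSPA6 probes differed, at log2 differences of -2.07 and -0.48. ATF6, a sensor of endoplasmic reticulum stress, was 1.73-fold lower, and FCRLB, not called without background correction, was the fourth. Beside FCER1G, 8 genes were kept. PPOX, an enzyme of heme synthesis, was 5.77-fold higher, and TOMM40L, a mitochondrial import gene, 1.78-fold lower. Beside FCGRT, 16 genes were kept, of which the cytokine gene FLT3LG was 1.53-fold higher. The arginine methyltransferase gene PRMT1, BCL2L12 and the small nucleolar RNA SNORD35B were 2.83-fold, 1.81-fold and 1.61-fold lower.

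**Figure D4:**
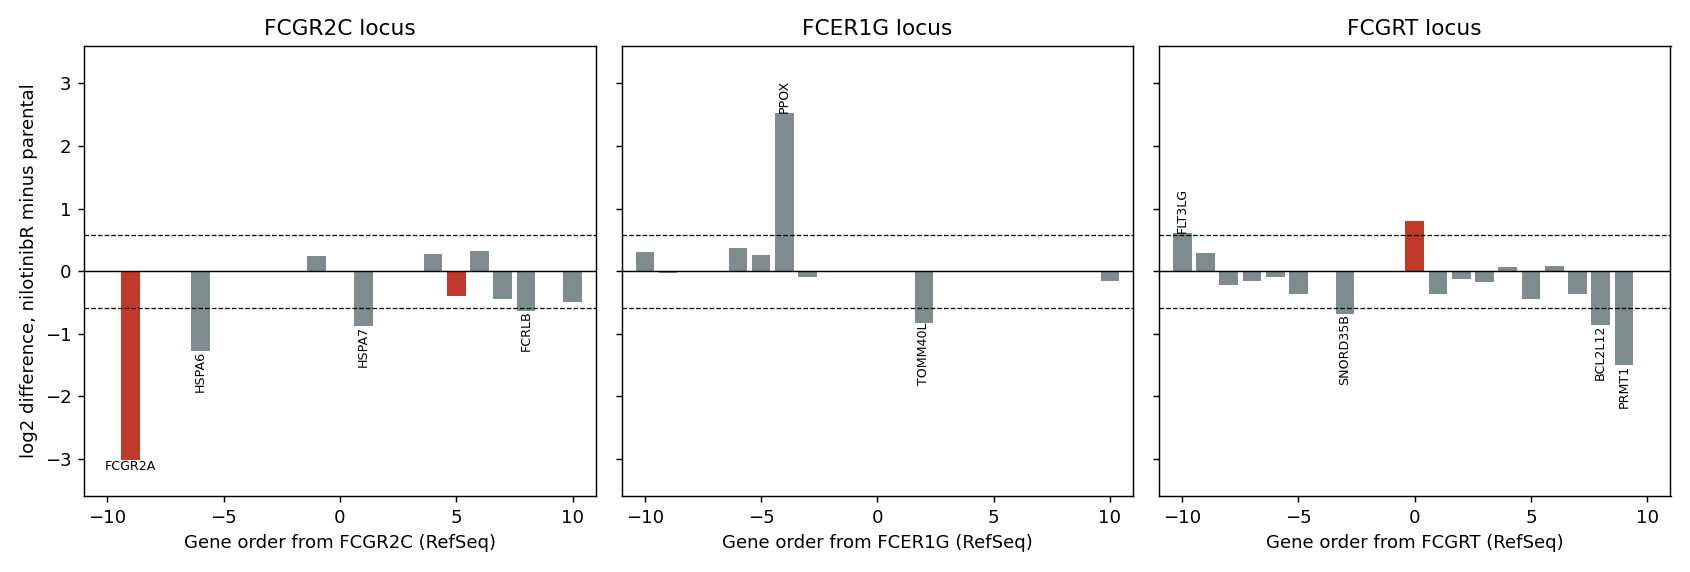
log2 difference (nilotinibR minus parental) of kept genes by their order around FCGR2C, FCER1G and FCGRT, with members in red and 1.5-fold as dashed lines. FCGR2A, chosen for its difference, lies at -3.02, below its neighbors, and FCGRT, at 0.81, stands among neighbors on both sides of 0.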

How the data were processed

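Total RNA of 1 nilotinibR and 1 parental K562 culture had been hybridized to HumanHT-12v4 BeadChips. For each of 47323 probes, the authors deposited an intensity, on a linear scale. Their methods name Genome Studio and robust multichip average, but the steps these values include are not given in the sources used here. A further 4 scanner columns (signals and detection p-values) carry names found in no sample's labels and were left out.

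Intensities were corrected with normexp (limma 3.58.1, R 4.3.3; offset 50), quantile normalized and set to log2. The dim-probe level was the mode of dim probes plus a multiple of the spread below it, set so that 5% of normally distributed background would exceed it. Probes above this level on at least 1 array were kept, and the 17585 kept probes with a gene symbol were averaged into 13164 genes. Symbols came from the platform annotation, updated through RefSeq (30074 of 30113 probes found). The members and gene lists were chosen with earlier results of these data known. Named genes are all members, up to 4 genes past 1.5-fold per list, the 5 genes nearest FCGR2A on both levels, neighbors past 1.5-fold and genes that define a role. ARPC4 and ARPC3 were named after their values were seen. The steps were tested on simulated data with large changes planted in bright probes only. That test does not cover probes near the dim-probe level or differences near 1.5-fold. Precision is limited by the number of arrays. The 2-sample test of the methods needs replicates and was not run.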

Additional observations from a re-analysis of the deposited data

How the results depend on the processing

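No paired analysis was possible because each condition has a single array, and no replicate could be left out. The 8 alternatives comprised the deposited values in log2 form, omission of the background correction, a normexp offset of 16, scaling of arrays to their median or to their 75th percentile, omission of the filter on dim probes, only probes above the dim-probe level on both arrays, and the brightest probe of a gene. FCGR2A, FCGR2B and FCGRT, the members with a kept probe, kept their direction under them. A value was taken as moved when it changed by more than 0.29, the pooled log2 SD between probes of a gene, or crossed 1.5-fold. The FCGR2A log2 difference was -2.49 without background correction, -2.52 in the deposited values, -3.67 with an offset of 16 and -3.38 from its brightest probe. That of FCGR2B was -0.62 with an offset of 16, and -0.73 both from probes above the dim-probe level on both arrays and from its brightest probe, all past 1.5-fold. Its probe ILMN_1660027 was under 1.5-fold, at -0.54, in the deposited values and also without background correction. FCGRT stayed past 1.5-fold in all 8. Its only probe was above the dim-probe level on both arrays, so the alternatives that only select probes could not alter its value. Among the others, FCGRT came closest to the threshold with background correction omitted, at 1.54-fold, and in the deposited intensities, at 1.55-fold. The counts of genes past 1.5-fold changed with the offset of 16, to 1571 higher and 1652 lower. Of 192 counts in lists, 166 stayed within 1.5 times the reported count or were 0 in both settings. Most reported counts in lists were 0, so this says little of the stability of the others. All FCGR2A probes and the brightest FCGR2B probe were at most 1.29 times the dim-probe level in nilotinibR cells, which limits their folds.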

Other observations

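Receptors with an ITIM, the inhibitory motif that FCGR2B carries, showed no gene past 1.5-fold. Of 22 on the list, 20 had a probe and 13 were kept, with a median log2 difference of 0.04. Of all genes, 8.22% were lower and 7.51% higher at that fold. Apart from LAIR1, LILRB1 and LILRB3, the kept genes had log2 levels of at most 6.63 on either array. Measured probes began at 6.19 on both arrays, so these dim genes had little room to show a decrease. LAIR1, an inhibitory collagen receptor, had a log2 level of 13.80 in nilotinibR cells and 14.10 in parental cells. LILRB1, which binds MHC class I, had 11.57 in nilotinibR cells and 11.05 in parental cells, and LILRB3 had 9.59 in nilotinibR cells and 9.32 in parental cells. The LAIR1 and LILRB1 levels each rest on 1 of 2 probes. The other probe of each gene was not above the dim-probe level on either array, so the probes of these genes disagree on the level.

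The 5 genes closest to FCGR2A by distance on the normalized log2 levels of the 2 arrays were ANKRD37 (distance 0.13), CD69 (0.45), H19 (0.46), PKM (0.48) and CD3D (0.54). ANKRD37, a gene known to respond to hypoxia, had a log2 level of 6.38 in nilotinibR cells and 9.35 in parental cells. The imprinted RNA H19 had 6.76 in nilotinibR cells and 9.14 in parental cells. CD69 was above the dim-probe level in parental cells only, so its distance rests on a value not above background. Levels of different probes are not on a common scale, and likeness over 2 arrays describes only these normalized values.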
